A study of Mus musculus with 8 samples.

Results

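Transcripts of 8 genes, 5 encoding caspases and 3 encoding proteins that assemble or restrain them, were followed in mouse blood stem cells: Casp1, Casp2, Casp6, Casp8, Casp9, Apaf1, Cflar and Fadd. They were taken as a named list by gene symbol from the 53715 genes in each count file, and all 8 were among the 13992 genes with enough counts to be tested. Every library held RNA of bone marrow cells sorted as lineage-negative, Sca-1-positive and Kit-positive, without CD48 and with CD150. 4 mice were labelled Gata2 WT and 4 were labelled Gata2 heterozygote, the latter with Mx1-Cre in the library name, and 1 library was made per mouse. All mice were 8 to 12 weeks old and had been given 6 doses of pIpC, a double-stranded RNA mimic that induces interferon and thereby the interferon-driven Mx1-Cre recombinase. The labels name Mx1-Cre in the heterozygotes alone, so a contribution of the transgene and one of the Gata2 allele cannot be told apart, and no group without pIpC was analysed here.

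Caspases are proteases that cut after aspartate and are made as inactive precursors. Initiator caspases become active when an adaptor gathers them: FADD gathers caspase 8 below death receptors, and APAF1, once bound by cytochrome c from mitochondria, gathers caspase 9 in the apoptosome. Executioner caspases then cut cell proteins, while the inflammatory caspase 1 matures interleukins and opens gasdermin pores. Haematopoietic stem cells carry this machinery, and both interferon and double-stranded RNA can feed into it.

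Libraries held 16750778 to 22861884 fragments assigned to genes. Gata2 itself was not lower under the heterozygote label, at 29.1 to 45.3 CPM (counts scaled to the library total) in wild-type libraries and 35.5 to 61.9 CPM in heterozygote-labelled ones (log2 fold change 0.33, SE 0.23, edgeR adjusted p = 0.858). The Gata2 counts cover all exons of the gene together and do not show whether an allele was altered, so directions below follow the labels alone. Of 10 stem cell markers all were detected and tested, whereas the lymphoid markers Cd3e, Cd3g and Il7r had no count in any library. The 8 monocyte and macrophage markers summed to 371 to 429 CPM in wild-type and 375 to 421 CPM in heterozygote-labelled libraries, with Lyz2 at 337 to 387 CPM and Cd68 at 21.0 to 46.1 CPM the main contributors. Neutrophil markers summed to 68.3 to 191 and 51.5 to 186 CPM, and lymphoid ones, all but a trace of it Nkg7 and Cd79b, to 344 to 561 and 415 to 636 CPM in the same order. Erythroid markers summed to 40.6 to 82.3 and 22.8 to 56.6 CPM and megakaryocyte markers to 612 to 915 and 469 to 768 CPM. Of 7 erythroid markers 1 was higher and 6 lower under the heterozygote label, with a median log2 fold change of -0.89. All 5 tested megakaryocyte markers were lower, with a median of -0.62. Monocyte and neutrophil markers each had 3 higher and 3 lower. None of these markers passed by edgeR or DESeq2. Whether these had a part in the caspase values was not tested.

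Casp8, Casp6 and Apaf1 were chosen after their values were seen, because their library ranges did not overlap between the labels. They were higher under the heterozygote label, a separation found in 1.65% of all genes tested. No member reached an adjusted p of 0.05 with edgeR. Cflar was added as the neighbour of Casp8 on chromosome 1. The start regions of these 4 genes are shown. Each is the RefSeq window of 300 bases on GRCm38.p6, from 250 bases before the start site to 50 from it onward, written 5′ to 3′ on the gene's strand. RefSeq windows were found for all 8 members. Capitals mark matches on either strand to a GATA word (GATA with A or T before it and A or G after it), to an interferon regulatory factor word (AANNGAAA), to the longer interferon response word (GAAA, any 2 bases, GAAA), which can overlap the former, or to a GC box (GGGCGG).
Casp8, chr1:58802252-58802551, plus strand: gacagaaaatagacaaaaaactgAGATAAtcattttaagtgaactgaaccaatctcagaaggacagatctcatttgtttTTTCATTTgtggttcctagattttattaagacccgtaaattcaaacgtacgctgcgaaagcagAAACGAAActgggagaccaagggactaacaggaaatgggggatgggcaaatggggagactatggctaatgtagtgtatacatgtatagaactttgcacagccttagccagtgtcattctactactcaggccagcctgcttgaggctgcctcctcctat
Cflar, chr1:58711241-58711540, plus strand: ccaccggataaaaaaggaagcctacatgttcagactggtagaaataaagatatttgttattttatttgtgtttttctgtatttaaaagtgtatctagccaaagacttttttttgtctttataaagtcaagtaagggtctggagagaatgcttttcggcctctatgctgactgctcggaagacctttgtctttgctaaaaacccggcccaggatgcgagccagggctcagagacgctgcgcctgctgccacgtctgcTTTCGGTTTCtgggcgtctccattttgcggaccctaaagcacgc
Casp6, chr3:129901165-129901464, plus strand: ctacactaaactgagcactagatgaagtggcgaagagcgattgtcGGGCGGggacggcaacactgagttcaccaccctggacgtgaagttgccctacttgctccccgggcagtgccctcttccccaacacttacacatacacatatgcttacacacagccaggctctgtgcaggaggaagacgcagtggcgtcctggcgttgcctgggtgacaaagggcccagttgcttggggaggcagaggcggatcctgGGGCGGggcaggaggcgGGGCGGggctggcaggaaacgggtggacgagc
Apaf1, chr10:91082694-91082993, minus strand: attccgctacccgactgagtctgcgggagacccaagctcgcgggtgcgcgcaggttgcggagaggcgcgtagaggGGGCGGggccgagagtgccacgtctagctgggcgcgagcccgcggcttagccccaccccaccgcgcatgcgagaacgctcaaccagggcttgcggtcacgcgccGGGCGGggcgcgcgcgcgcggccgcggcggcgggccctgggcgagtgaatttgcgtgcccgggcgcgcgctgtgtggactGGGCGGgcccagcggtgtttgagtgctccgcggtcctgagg

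The windows fell into 2 kinds by base composition. Those of Casp8, Casp1 and Cflar were 42%, 48.0% and 45.0% G or C with 5, 3 and 12 CpG dinucleotides, and had no GC box. The windows of Casp6, Apaf1, Casp9, Casp2 and Fadd were 60.3% to 74.7% G or C, Apaf1 being highest with 46 CpG, and each held 2 to 4 GC boxes. Over all 32851 RefSeq windows the median was 52.7% G or C and 7 CpG, and 35.7% held a GC box. Casp8 had a GATA word that began 227 bases before the start site and interferon regulatory factor words that began 171 and 108 bases before it. Casp9 also had a GATA word, which began 143 bases before its start site, so 2 of the 8 windows held one. In Cflar a match to the longer interferon response word began 7 bases into the transcript. GATA words occur in 29.8% of all windows, the short interferon word in 23.9% and the long one in 3.44%. A match is a run of letters and not a measured binding site. The RefSeq start of Casp8 lies downstream of the first GENCODE exon, which begins at base 58795374, so the window covers 1 of its starts.

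Compared per kilobase of exon, the members spanned about 2 orders of magnitude. In wild-type libraries Casp1 was at 89.9 ± 16.9 and Casp8 at 76.3 ± 6.02 CPM per kb (SD, n = 4), followed by Casp6 at 19.3 ± 1.99 and Casp2 at 16.8 ± 2.13. Fadd at 8.01 ± 0.656, Cflar at 4.78 ± 1.79, Apaf1 at 1.17 ± 0.0724 and Casp9 at 0.729 ± 0.316 CPM per kb came next. The initiator and adaptor of the mitochondrial route, Casp9 and Apaf1, were thus the lowest. Averaged over all 8 libraries, Casp8 of the death receptor route exceeded 93.4% of all tested genes and Casp1 94.5%. Casp1 and Casp8 overlapped in their library ranges in both groups. Casp6 and Casp2 overlapped in wild type (16.4 to 20.7 against 14.1 to 18.9) but not under the heterozygote label (21.9 to 26.2 against 12.3 to 20.1), and Apaf1 and Casp9 overlapped only in the heterozygote-labelled libraries. Exon length was the union over all annotated transcripts, 12669 bases for Cflar against 1497 for Casp1, which lowers the per-length level of genes with long rarely used exons.

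**Figure D1:**
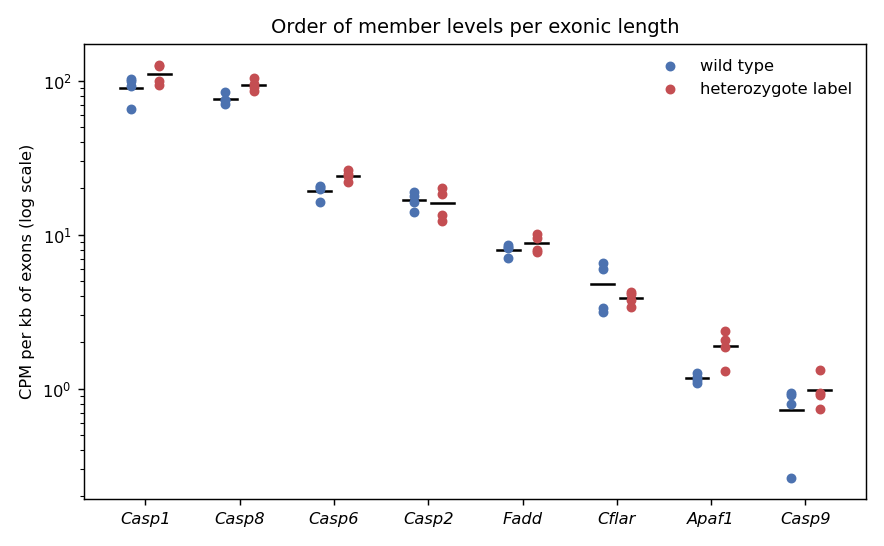
Level of each member per exonic length in each library, as CPM per kb on a log axis, with wild-type libraries in blue, heterozygote-labelled ones in red and group means as bars. Casp1 and Casp8 lie highest, and Apaf1 and Casp9 lie lowest in both groups.

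Most members were measured higher under the heterozygote label, and none passed the test. For 6 of 8 the log2 fold change was positive, the median being 0.30, against 48.0% positive and a median of -0.02 over all genes tested. None reached an adjusted p of 0.05 with edgeR, as held for 0 of all 13992 genes (0.0%, smallest adjusted p = 0.834). DESeq2 called 79 genes (0.505% of those it gave an adjusted p) and none of the 8. By unadjusted p under 0.05 in edgeR, 3 members stood out, all higher, where 5.66% of all genes did so and 2.37% in that direction. That background of 792 genes became 1812 without wild-type replicate 3, and lay between 557 and 891 when any other library was left out. In the same 3, Casp8, Casp6 and Apaf1, no heterozygote-labelled library was as low as any wild-type one, as in 1.65% of all genes, with 3.47% separated in either direction. The list was drawn up with earlier results of these data known, so these shares describe it and are not a test of it. In sorted bulk samples, fewer cells of a type and less RNA per cell cannot be told apart.

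**Figure D2:**
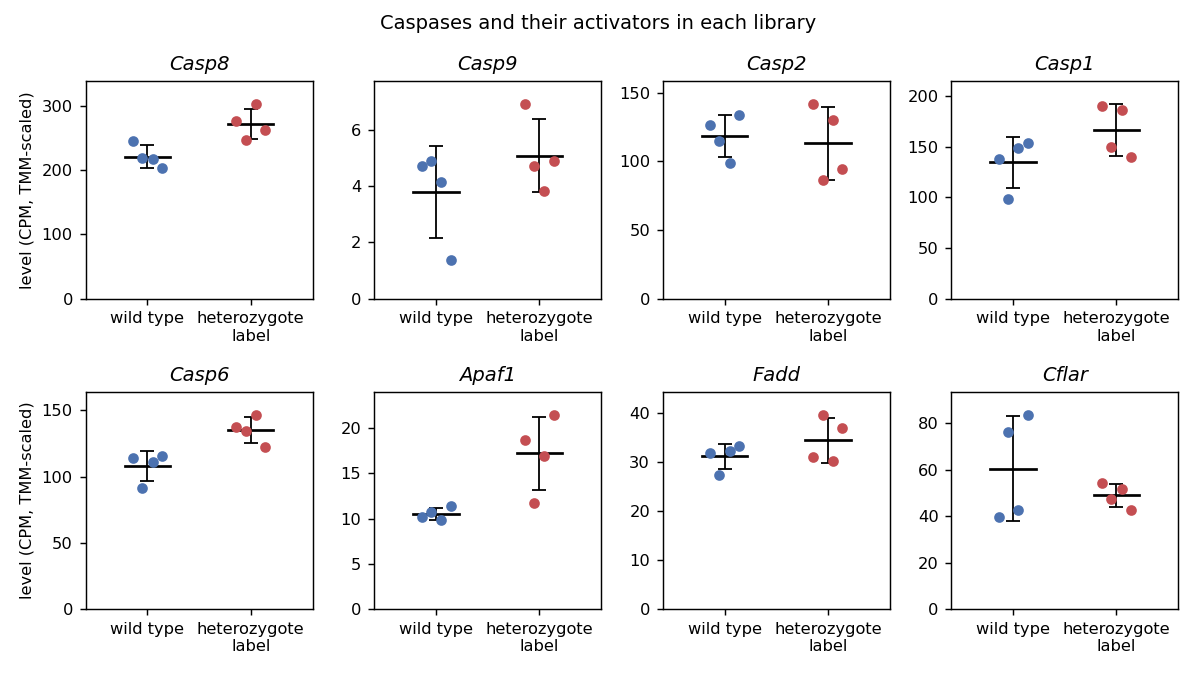
TMM-scaled CPM of each member in each library, with wild type in blue, the heterozygote label in red, and bars for the mean and SD of 4 libraries. The 2 groups are apart in Casp8, Casp6 and Apaf1 and overlap in the other members.

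Casp8 encodes the initiator of death receptor signalling, which also holds back necroptosis by cutting RIPK proteins. The gene (ENSMUSG00000026029.14) spans bases 58795374 to 58847503 of chromosome 1, plus strand, GRCm38, and collected 4038 to 5910 fragments per library, the most of any member. In replicates 1 to 4 of wild type it was measured at 244, 218, 217 and 203 CPM, and in replicates 1 to 4 of the heterozygote label at 276, 247, 302 and 261 CPM. The lowest heterozygote-labelled library exceeded the highest wild-type one by a narrow margin, 247.2 against 244.5 CPM. Group means were 221 ± 17.4 and 272 ± 23.4 CPM (SD, n = 4 each). The fold change of 1.23 (95% interval 1.05 to 1.44; log2 0.30, SE 0.10) came with edgeR's unadjusted p = 0.0158 and adjusted p = 0.850. With DESeq2 its adjusted p was 0.199, and over the alternatives it ran from 0.199 to 1.00.

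Cflar encodes c-FLIP, a relative of caspase 8 without protease activity that binds FADD and limits caspase 8 activation. It lies next to Casp8, from 58711508 to 58758884 on the same strand (ENSMUSG00000026031.15), with 36490 bases between them. Wild-type libraries fell into a high and a low pair, 76.4 and 83.6 CPM in replicates 2 and 4 and 39.6 and 42.6 CPM in replicates 1 and 3. The heterozygote-labelled libraries, at 54.2, 47.6, 51.9 and 42.8 CPM in replicates 1 to 4, all lay between those pairs. The means were 60.5 ± 22.7 and 49.1 ± 5.03 CPM (SD, n = 4 each), and the log2 fold change was -0.30 (SE 0.26, edgeR adjusted p = 0.876). It was -0.11 without wild-type replicate 4, -0.16 without replicate 2, -0.45 without replicate 1 and -0.44 without replicate 3, so its size rested on single wild-type libraries.

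The ratio of Casp8 to Cflar fragments, which share a library and so need no scaling, followed the same split. Wild-type replicates 1 to 4 gave ratios of 6.17, 2.86, 5.10 and 2.42, and heterozygote-labelled replicates 1 to 4 gave 5.09, 5.19, 5.82 and 6.11. The means were 4.14 ± 1.79 and 5.55 ± 0.492 (SD, n = 4 each), and wild-type replicates 1 and 3 lay within or above the heterozygote-labelled range. The ratio was chosen after the values were seen and was not tested.

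**Figure D3:**
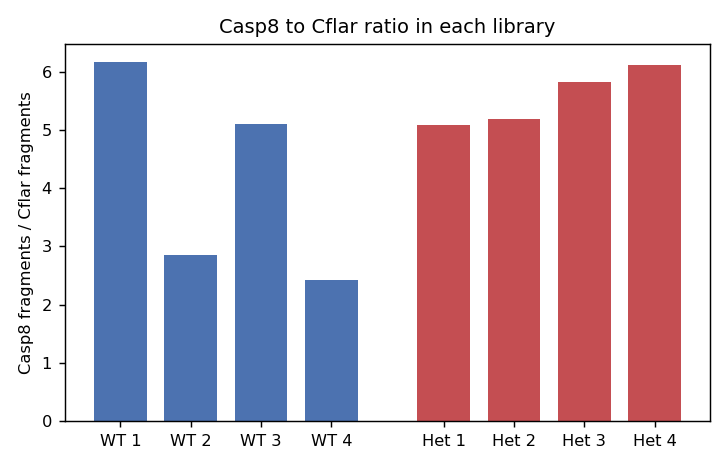
Fragments of Casp8 divided by fragments of Cflar in each library, wild type (WT) in blue and heterozygote label (Het) in red. Replicates 2 and 4 of wild type, at 2.86 and 2.42, are below the other 6 libraries.

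Fadd encodes the adaptor between death receptors and caspase 8 (ENSMUSG00000031077.7, chromosome 7 from 144577318 to 144582463, minus strand). It had the narrowest spread relative to its level: the pooled SD of log2 CPM within groups was 0.16, below that of all but 2.99% of genes within 1.5-fold of its level, whose median was 0.38. Levels were 31.9, 27.5, 32.4 and 33.3 CPM in wild type and 31.0, 39.7, 30.3 and 36.9 CPM under the heterozygote label, with overlapping groups. The log2 fold change was 0.14 (SE 0.17, edgeR adjusted p = 0.926), with a 95% interval of the fold from 0.845 to 1.44. Leaving out heterozygote-labelled replicate 2 gave 0.067, and removing each library's trend on GC content and length gave 0.28. Of its exonic bases, 239 (6.12%) are shared with the opposite-strand gene Faddos, which stranded counting keeps apart.

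Apaf1, the scaffold of the apoptosome, had the largest fold change of the members. The gene (ENSMUSG00000019979.12) spans 90989311 to 91082770 of chromosome 10, minus strand, and was counted 192 to 418 times per library. Wild-type levels were close together at 10.2, 10.7, 9.86 and 11.4 CPM, and heterozygote-labelled levels were 18.6, 11.8, 16.9 and 21.4 CPM. Replicate 2 of the heterozygote label lay just above the highest wild-type library, and the other three well above it. Means were 10.5 ± 0.653 and 17.2 ± 4.06 CPM (SD, n = 4 each), a fold of 1.63 (95% interval 1.10 to 2.41). On the log2 scale this was 0.70 (SE 0.25), with edgeR's unadjusted p = 0.0195 and adjusted p = 0.850. DESeq2 gave an adjusted p of 0.185, within a range of 0.185 to 1.00 over the alternatives.

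Casp9, the protease that APAF1 gathers, was the member with the fewest counts, 31 to 138 per library (ENSMUSG00000028914.13, chromosome 4 from 141793612 to 141815976, plus strand). Wild-type replicates 1 to 4 stood at 4.72, 4.90, 4.16 and 1.36 CPM, and replicates 1 to 4 under the heterozygote label at 6.91, 4.71, 3.82 and 4.91 CPM. Wild-type replicate 4 was far below the rest, and the groups overlapped. The log2 fold change was 0.43 (SE 0.47, edgeR adjusted p = 0.916) and 0.15 without that library, or 0.25 without heterozygote-labelled replicate 1. The 95% interval of the fold, 0.647 to 2.79, held the value of 1.63 measured for Apaf1.

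Casp6 encodes an executioner caspase that cuts nuclear lamins. The gene (ENSMUSG00000027997.9) lies on chromosome 3 from 129901425 to 129914103, plus strand. Wild-type replicates 1 to 4 gave 114, 91.4, 111 and 115 CPM, against 137, 135, 146 and 122 CPM in replicates 1 to 4 of the other group. Every heterozygote-labelled library was above every wild-type library, and wild-type replicate 2 was the lowest of all. The means of 108 ± 11.1 and 135 ± 10.0 CPM (SD, n = 4 each) gave a fold of 1.25 (95% interval 1.04 to 1.5). The log2 fold change was 0.33 (SE 0.12) with edgeR's unadjusted p = 0.0201 and adjusted p = 0.850, and by DESeq2 the adjusted p was 0.246, in a range from 0.246 to 1.00 over the alternatives.

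Casp2, an initiator caspase activated by the PIDDosome after DNA damage or extra centrosomes, was close to even (ENSMUSG00000029863.13, chromosome 6 from 42264985 to 42282508, plus strand). Levels were 127, 115, 99.2 and 134 CPM in wild type and 142, 86.5, 130 and 94.2 CPM under the heterozygote label, where replicates 1 and 3 were high and replicates 2 and 4 low. The log2 fold change of -0.07 (SE 0.18, edgeR adjusted p = 0.959) turned to 0.041 without heterozygote-labelled replicate 2 and to 0.010 without replicate 4. The 95% interval of the fold ran from 0.722 to 1.26.

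Casp1, the inflammasome protease, was the second most abundant member by CPM (ENSMUSG00000025888.5, chromosome 9 from 5298517 to 5307265, plus strand). Among wild-type replicates 1 to 4 it stood at 138, 97.9, 149 and 154 CPM, and among heterozygote-labelled replicates 1 to 4 at 190, 150, 186 and 140 CPM. Wild-type replicate 2 was the lowest and heterozygote-labelled replicates 1 and 3 were the highest, with the other libraries intermixed. The log2 fold change was 0.31 (SE 0.17, edgeR unadjusted p = 0.0960, adjusted p = 0.850). It was 0.19 without wild-type replicate 2 and 0.17 once library trends with GC content and exonic length were removed. Across genes, a library's deviation correlated with GC content at 0.185, 0.236, -0.168 and 0.0437 for replicates 1 to 4 of wild type and between -0.101 and -0.0321 in the heterozygote-labelled libraries, and Casp1 had the lowest GC content of the members, 41.1%. Removing the trends moved the log2 fold change of each other member upward, as for Casp6 from 0.33 to 0.40 and for Casp9 from 0.43 to 0.65. Whether GC content had a part in the Casp1 difference was not tested.

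**Figure D4:**
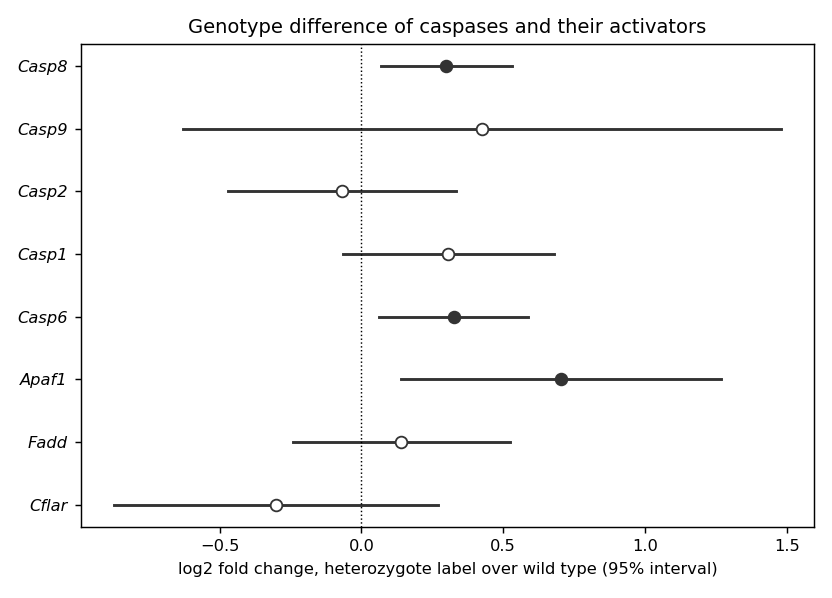
Log2 fold change of each member, heterozygote label over wild type, with 95% intervals from edgeR. Filled points are genes whose groups do not overlap, namely Casp8, Casp6 and Apaf1.

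Libraries with Xist counts (replicates 1 and 4 of both genotypes) and those with Y-linked counts (replicates 2 and 3) were also compared apart. The log2 difference of means was 0.27 and 0.33 for Casp8, 0.18 and 0.48 for Casp6, and 0.88 and 0.45 for Apaf1, in that order, each from 2 libraries per group. Casp9 differed by 1.16 and -0.09. No member had a genotype difference that itself differed between the sexes by edgeR's interaction test (adjusted p = 1.00 for each), and 0 genes passed that test in all, with 425 at an unadjusted p under 0.05.

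Of the inflammatory caspase genes outside the list, Casp4, the sensor of intracellular lipopolysaccharide and an interferon-inducible gene, measured 44.4 ± 8.65 and 60.4 ± 17.6 CPM (SD, n = 4 each). Its log2 fold change was 0.44 (SE 0.24, edgeR adjusted p = 0.850). Casp12, at 150 ± 22.7 and 158 ± 34.2 CPM (SD, n = 4 each), differed by 0.08 (SE 0.17), and neither gene passed the test.

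Among 13 tested genes of the death receptor arm, 5 were higher and 8 lower, the median was -0.05, and none passed by edgeR or DESeq2. The adaptor gene Tradd, which links the TNF receptor to RIPK1 and FADD, gave 64.2, 80.0, 45.3 and 48.8 CPM across replicates 1 to 4 of wild type and 40.2, 33.8, 30.2 and 45.0 CPM under the heterozygote label. All heterozygote-labelled libraries were below all wild-type ones, although the highest of the former, 45.0 CPM, and the lowest of the latter, 45.3 CPM, nearly met. Its log2 fold change was -0.67 (SE 0.22, edgeR unadjusted p = 0.0125, adjusted p = 0.850). The necroptosis kinase gene Ripk3, whose protein is cut by caspase 8, measured 137 ± 10.5 and 104 ± 23.9 CPM (SD, n = 4 each). Its groups also did not overlap, by a narrow margin, 122.4 CPM under the heterozygote label against 123.6 CPM in wild type. The log2 fold change was -0.40 (SE 0.17, edgeR unadjusted p = 0.0461, adjusted p = 0.850). Over all genes tested, 3.47% were separated in either direction. Traf2, which recruits inhibitors of apoptosis to the TNF receptor, differed by -0.84 (SE 0.51). Fas stood at 5.93 ± 2.01 and 5.33 ± 1.93 CPM (SD, n = 4 each). Of the ligands, Fasl had no counts and Tnf at most 0.251 CPM, whereas Tnfsf10, encoding TRAIL, was at 42.4 ± 3.13 and 46.8 ± 10.4 CPM (SD, n = 4 each).

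In the mitochondrial arm 3 of 7 genes were higher and 4 lower, with a median of -0.13 that became 0.13 with the GC and length trend removed. Cycs, the cytochrome c that binds APAF1, measured 240, 194, 403 and 237 CPM in wild type and 286, 366, 402 and 359 CPM under the heterozygote label. Wild-type replicate 3 was level with the highest heterozygote-labelled library, and the log2 fold change was 0.40 (SE 0.21, edgeR adjusted p = 0.850). Diablo, an antagonist of inhibitors of apoptosis, was scarce at 7.18 CPM in wild type and differed by 0.43 (SE 0.32, edgeR adjusted p = 0.8585). Its groups did not overlap, with the lowest heterozygote-labelled library at 9.42 CPM and the highest wild-type one at 9.09 CPM. Such a separation, with the heterozygote label higher, was found in 1.65% of all genes tested. The unadjusted p of Diablo by edgeR was 0.214. Its wild-type replicate 1 stood at 3.89 CPM, against 7.87 to 9.09 CPM in the other wild-type libraries. Opa1, a fusion protein of the inner mitochondrial membrane, differed by -0.38 (SE 0.19). A list of 5 inhibitors of apoptosis and their interferon-inducible antagonist gene Xaf1 had 3 of 6 genes higher and a median of 0.02. Of the inhibitors themselves 2 were higher, Xiap, a direct caspase inhibitor, by 0.04 (SE 0.21) and Birc6 by 0.17 (SE 0.17). Lower values were measured for Birc3 at -0.20 (SE 0.25), Birc2 at -0.11 and Birc5 at -0.0081, while Xaf1 differed by 0.41 (SE 0.19), and none of the 6 passed the test.

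Of the inflammasome arm around Casp1, 10 of 13 genes were tested, 6 higher and 4 lower, with a median of 0.07 and no call. The adaptor gene Pycard was at 136 ± 28.5 and 144 ± 14.8 CPM (SD, n = 4 each), and the DNA sensor gene Aim2 at 22.9 ± 4.28 and 23.7 ± 4.88 CPM. Nlrp3 and Mefv had no counts in any library, so of the sensors on the list Aim2 was the most abundant. Nlrp1a was counted unevenly, at 1.03, 0, 0 and 0.925 CPM in wild type and 6.36, 0.0612, 7.42 and 1.69 CPM under the heterozygote label (log2 fold change 2.96, SE 1.52, edgeR adjusted p = 0.850). The substrate gene Il18 differed by 0.31 (SE 0.22) and Nlrc4, at most 3.04 CPM, by -1.79 (SE 1.29). Of the Casp2 platform, Pidd1 was at most 1.89 CPM and not tested, and Cradd differed by 0.32 (SE 0.32).

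Of 11 caspase substrates 5 were higher and 6 lower, with a median of -0.09. Dffa, the inhibitor of the DNA-cutting nuclease that caspases release, measured 24.1 ± 6.17 and 15.8 ± 3.45 CPM (SD, n = 4 each), a log2 fold change of -0.61 (SE 0.27, edgeR unadjusted p = 0.0478, adjusted p = 0.850). Rock1, the kinase behind membrane blebbing, differed by 0.43 (SE 0.21) and Gsn, the actin-severing gelsolin, by -0.55 (SE 0.36).

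**Figure D5:**
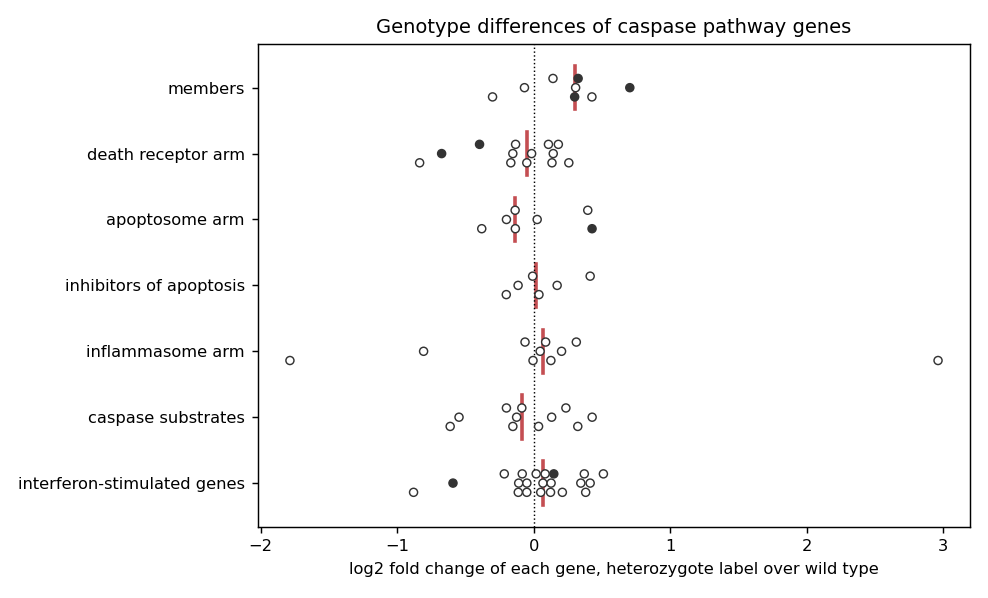
Log2 fold change of each tested gene in the caspase list and 6 related lists, heterozygote label over wild type, with list medians as red bars and filled points for genes whose groups do not overlap. The members have a median of 0.30, and the medians of the other lists plotted lie between -0.13 and 0.07, the PIDDosome list, whose only tested gene was Cradd at 0.32, not being plotted.

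Interferon-stimulated genes are given beside the members because pIpC induces interferon and Casp1 and Casp4 respond to it in many cells. Their summed level was 1232 to 1308 CPM in wild-type and 1338 to 1490 CPM in heterozygote-labelled libraries, which did not overlap. Single genes were divided, with 13 of 21 tested genes higher, a median of 0.07 and no call. Rtp4 differed by 0.51 (SE 0.16) and Irf1 by -0.59 (SE 0.21) on the log2 scale. Whether the interferon response had a part in the levels of Casp8, Casp1 or Casp4 was not tested.

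For each member the most similar profile over the 8 libraries was sought among 7805 other genes that averaged 10 CPM or more. Casp8 was most like Usp34 (Pearson r 0.97, Spearman rho 0.93) and Casp6 most like 9330162G02Rik (0.99 and 0.98). Fadd paired with Nfu1 (0.96 and 0.98), Casp1 with Cct2 (0.97 and 0.79) and Casp2 with Dennd4a (0.93 and 0.86). Apaf1 was nearest to Gm13212 (0.91 and 0.86), Casp9 to Gprasp2 (0.95 and 0.79) and Cflar to Tgoln1 (0.93 and 0.69). Each is the highest of many correlations over 8 libraries that share their depth and scaling, so they are descriptions without a test.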

How the data were processed

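RNA of 8 mouse bone marrow samples was depleted of ribosomal RNA and sequenced as strand-specific paired reads, per the labels' protocols. The submitters' processing notes name Trim Galore and cutadapt, STAR 2.5.1b and the GRCm38 build. The deposited values are raw fragment counts per gene, made by the authors with featureCounts in reverse-stranded mode on GENCODE M17 exons, per the file headers. The headers give featureCounts 1.6.2 and the notes 1.5.1. The command holds no option to count a fragment for several genes, and no member shares exonic bases with a gene on its strand. Symbols came from GENCODE M21, which matched 53620 of 53715 identifiers by gene ID without version. Promoter sequences are RefSeq's.

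Groups and replicate numbers came from the library names. Nothing says whether the mice of a group were littermates. edgeR 4.0.16 in R 4.3.3 used filterByExpr, TMM scaling (factors 0.946 to 1.08) and a robust quasi-likelihood F test on genotype alone, two-sided, with Benjamini-Hochberg adjustment over 13992 genes and a threshold of 0.05. CPM are TMM-scaled, log2 CPM carry a prior count of 2, and standard errors derive from the fold change and its F statistic. DESeq2 1.42.0, limma 3.58.1 (voom with quality weights), other scalings and filters, a replicate block, a sex term, removal of a loess trend on GC content and length, and leaving out each library were alternatives. The procedure was run on simulated counts, and the outcome is not reported here. The members and the lists were chosen with earlier results of these data known. The genes named were drawn from the 8 members, Gata2, up to 3 genes per list by unadjusted p, and the gene most like each member. Others (Fas, Tnf, Fasl, Tnfsf10, Xiap, Birc2, Birc5, Cd68, Pycard, Aim2, Pidd1, Casp12 and genes without counts) were added after their values were seen, for their role. Some related genes are not reported here.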

Additional observations from a re-analysis of the deposited data

Results flagged for a closer look

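In 94 groups of 4 libraries, 4 held a library set apart from the other three by Dixon's ratio of gap to range (above its critical value), where chance flags about 1 in 20 groups. Casp9 had a log2 CPM of 0.55 in wild-type replicate 4 against 2.09 to 2.32 in the other wild-type libraries. Casp6 had a log2 CPM of 6.52 in wild-type replicate 2 against 6.79 to 6.85. Without that library its log2 fold change was 0.27. Diablo stood at a log2 CPM of 3.38 in heterozygote-labelled replicate 4 against 3.25 to 3.26 in the others of its group, and S100a9, a neutrophil calcium-binding protein, at 4.94 in wild-type replicate 3 against 2.98 to 3.23. Heterozygote-labelled replicate 3 was likewise the highest of its group for S100a9, at 29.9 CPM against 30.6 CPM in wild-type replicate 3.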

How the results depend on the processing

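Over 18 alternatives the 8 members gave 144 values, of which 142 kept their direction and their side of the threshold. The alternatives refit the same libraries, and no gene at all passed in any but DESeq2, so keeping the side says little. The other 2 were those of Casp2, which changed sign to 0.041 without heterozygote-labelled replicate 2 and 0.010 without heterozygote-labelled replicate 4, and ranged from -0.18 to 0.041 when 1 library was left out. The log2 fold change of Casp8 lay between 0.23 and 0.36, that of Casp6 between 0.26 and 0.40 and that of Apaf1 between 0.58 and 0.85, with unadjusted p under 0.05 in 16, 17 and 17 of 18 alternatives. The count of genes past the threshold was 0 with all 8 libraries and in each alternative except DESeq2, which called 79; limma voom called 0. Before adjustment, limma voom had 1412 genes with p under 0.05 and edgeR 792. Leaving out 1 library also left 0 genes in every case. With the replicate number as a block 0 genes passed and Casp8 was at 0.30, Casp6 at 0.33 and Apaf1 at 0.67. Same-numbered libraries deviated together only weakly (correlations 0.0437, 0.00565, 0.0961 and 0.0215). Wild-type replicates 1 and 3 correlated best with their own number, 0.0961 being the highest of all. Wild-type replicates 2 and 4 correlated best with heterozygote-labelled replicates 4 (0.0376) and 1 (0.0362). Same-numbered libraries also matched in having Xist or Y-linked counts. Whether the numbers pair the mice was not settled, and the main fit did not pair them. Of 270 list medians under alternatives, 5 moved by more than 1 SD between libraries. These were the death receptor arm at 0.06 with the GC and length trend removed and 0.06 without wild-type replicate 4, the apoptosome arm at 0.13 and interferon-stimulated genes at 0.16 with that trend removed, and monocyte markers at 0.31 without wild-type replicate 2. Depth limits Casp9 most, with 31 fragments in its lowest library.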
